A study of Mus musculus with 2 samples.

Results

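The liver takes up most amino acids that reach it after a meal or during fasting and breaks them down. For this report 35 enzyme genes were taken by gene symbol, nearly all of this breakdown, though Asns is biosynthetic. The rule uses no measured value but was written with earlier results of these data known. The 35 genes fall into the aromatic group (4 genes), the branched-chain group (10 genes), the histidine group (4 genes), the serine and glycine group (7 genes), the transaminases (4 genes) and 6 further genes of glutamine, glutamate, proline, lysine and asparagine metabolism. Of the 35 symbols, 34 had a row among the 15526 genes of the table and 32 were above an expression floor, a mean of at least 10 CPM (reads scaled to library size) over both pools. Sdsl and Asns were below that floor. Bckdhk was not analysed here.

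Livers of female NOG-TKm30 mice were compared after 4 weeks with 0.3% acetoaceto-o-toluidide (AAOT), an amide of an aromatic amine, or with 0% (control), by a route the labels do not state. The mice were 22 weeks old, and NOG mice lack a working adaptive immune system. Mice of both pools carried the mutant herpes simplex thymidine kinase transgene TKm30, driven by a transthyretin enhancer and promoter, which is active in hepatocytes. The labels call the background C57BL in some fields and NOG in others. Each pool was 1 library made from the mixed RNA of 3 mice, so a ratio describes these 2 libraries, its interval covers counting error only, and neither a spread between mice nor a p-value could be had. The AAOT library held 16528533 reads assigned to genes and the control library 18801241 reads.

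Breakdown of an amino acid usually starts with the removal of its nitrogen, by a transaminase that passes it to a keto acid or by a lyase or dehydratase that frees ammonia. The carbon skeletons are then oxidised in steps shared with gluconeogenesis, ketone body formation and the citric acid cycle, while the nitrogen goes to urea. In rodent liver, Hal, Sds and Gls2 are known as genes of the periportal zone, and Tat and Sds are textbook genes induced by fasting hormones. Branched-chain amino acids are an exception, since their transamination takes place mostly outside the liver and the later steps in it.

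The enzymes as a set were slightly higher in the AAOT pool, by ratios that were small for nearly all of them. The median log2 ratio of AAOT over control, taken as log2((AAOT CPM + 1)/(control CPM + 1)), was 0.12 over the 32 enzymes and -0.02 over all 7761 genes above the floor, and 21 of the 32 enzymes (65.6%) had a ratio above 0 against 46.4% of all genes. At least 25% higher were 6 of 32 enzymes (18.8%), against 7.02% of all genes, and at least 20% lower, the same distance on the log scale, was 1 of 32 (3.12%), against 5.93%. At 1.5-fold, 1 enzyme was higher (3.12%, against 2.07% of all genes) and 0 were lower (1.39% of all genes), and at 2-fold 0 were higher or lower, where the shares of all genes were 0.773% and 0.425%. The counts at 1.5-fold and 2-fold were thus near those of all genes. The counting interval lay wholly above 1 for 18 of the 32 enzymes, wholly below 1 for 6 and held 1 for 8. These shares were not taken over all genes, so the counts say nothing particular about the enzymes. At high read numbers an interval leaves out 1 even at a small ratio, such as 1.06 (1.03 to 1.09) for Fah. The summed level of the 34 genes with a row was 12226 CPM in the AAOT pool and 11684 CPM in the control pool.

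**Figure D1:**
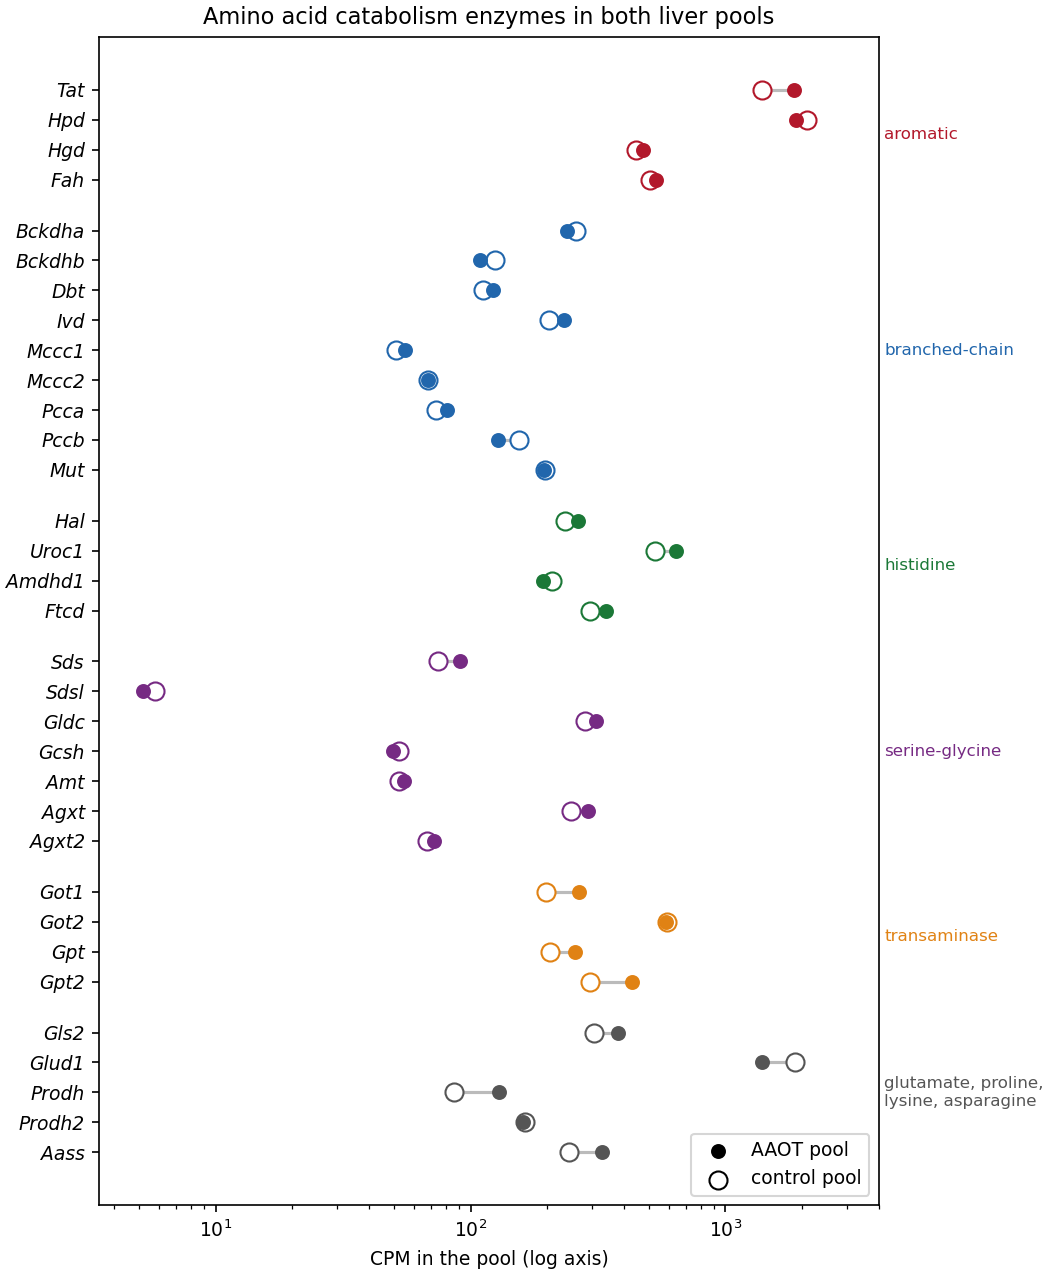
Level of each enzyme gene in CPM (log axis) in the AAOT pool (filled points) and the control pool (open points), 1 library each, by group. Most pairs of points lie close together, with the widest gaps at Prodh, Gpt2, Got1, Aass, Tat and Glud1, and in Glud1 the AAOT point is the lower of the pair. Asns, with 1 read and 2 reads, is left out.

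Prodh, Gpt2, Got1, Aass and Glud1 stood farthest from no change among enzymes with a promoter window in the RefSeq table, 4 of them higher and Glud1 lower, and their windows are shown for that reason. Each window runs from 250 bases before to 50 bases after the RefSeq transcription start (GRCm38.p6), 5′ to 3′ along the gene's strand. Capitals mark matches, on either strand, to the short motifs named after the sequences.
Prodh: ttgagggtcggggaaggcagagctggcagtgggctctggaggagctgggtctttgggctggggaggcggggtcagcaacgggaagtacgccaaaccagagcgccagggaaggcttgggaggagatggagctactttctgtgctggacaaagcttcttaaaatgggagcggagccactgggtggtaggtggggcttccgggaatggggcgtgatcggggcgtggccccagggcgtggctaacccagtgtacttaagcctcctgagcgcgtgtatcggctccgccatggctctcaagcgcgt
Gpt2: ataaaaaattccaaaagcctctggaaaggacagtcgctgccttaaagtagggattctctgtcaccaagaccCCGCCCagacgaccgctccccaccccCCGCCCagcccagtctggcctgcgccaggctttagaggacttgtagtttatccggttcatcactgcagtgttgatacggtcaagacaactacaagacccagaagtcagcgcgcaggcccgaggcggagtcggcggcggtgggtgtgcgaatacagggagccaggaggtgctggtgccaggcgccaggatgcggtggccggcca
Got1: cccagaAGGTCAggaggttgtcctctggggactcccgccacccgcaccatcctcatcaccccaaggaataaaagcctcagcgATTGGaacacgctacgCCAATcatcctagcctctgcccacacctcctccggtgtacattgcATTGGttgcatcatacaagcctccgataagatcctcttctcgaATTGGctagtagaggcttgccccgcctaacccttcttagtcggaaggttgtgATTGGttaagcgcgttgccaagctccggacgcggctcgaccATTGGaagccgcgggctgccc
Aass: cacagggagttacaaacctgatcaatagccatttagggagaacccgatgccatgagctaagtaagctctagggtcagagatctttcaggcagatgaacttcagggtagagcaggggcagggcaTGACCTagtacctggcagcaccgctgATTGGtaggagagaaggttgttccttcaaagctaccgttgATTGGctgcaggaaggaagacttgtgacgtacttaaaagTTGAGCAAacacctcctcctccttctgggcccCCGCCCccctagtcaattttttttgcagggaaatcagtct
Glud1: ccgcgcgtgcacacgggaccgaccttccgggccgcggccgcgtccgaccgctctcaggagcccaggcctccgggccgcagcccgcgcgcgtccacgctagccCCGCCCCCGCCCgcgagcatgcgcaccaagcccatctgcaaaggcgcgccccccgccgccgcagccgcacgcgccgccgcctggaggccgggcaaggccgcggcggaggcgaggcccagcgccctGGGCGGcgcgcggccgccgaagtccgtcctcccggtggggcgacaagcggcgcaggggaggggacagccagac

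The windows lie at chr16:18089141-18089440 (minus strand) for Prodh, chr8:85492326-85492625 (plus strand) for Gpt2, chr19:43524556-43524855 (minus strand) for Got1, chr6:23132937-23133236 (minus strand) for Aass and chr14:34310477-34310776 (plus strand) for Glud1. Their G and C content was 63.0% in Prodh, 60.3% in Gpt2, 57.3% in Got1, 50.3% in Aass and 81.0% in Glud1, against a median of 52.7% over 32851 windows. The 9 motifs searched, on both strands, were chosen with the ratios already known, and matches to different motifs can overlap. Prodh held none of them. The CCAAT box, searched as CCAAT, occurred 6 times in Got1 and in both orientations, and 2 times in Aass. The GC box, searched as GGGCGG, occurred 3 times in Glud1, 2 times in Gpt2 and once in Aass. The nuclear receptor core site, searched as AGGTCA, occurred in Got1 and Aass, and a C/EBP site, searched as TTGCNNAA, in Aass. None of the 5 held a TATA box, searched as TATAAA, whereas the windows of Got2, Ftcd, Hal, Agxt2 and Hgd did.

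Some of the 28 enzymes with a window had more than 1, for 31 windows, and shares are of windows. The median G and C content was 55.7% in these windows and 52.7% in all windows. AGGTCA occurred in 38.7% of the enzymes' windows (12 windows of 10 genes) and in 16.3% of all windows. CCAAT occurred in 54.8% and in 37.4% of all windows, and GGGCGG in 41.9% and in 35.7%. TATAAA occurred in 19.4% and in 13.6% of all windows, and TTGCNNAA in 16.1% and in 10.8%. The cAMP response element TGACGTCA and the forkhead site GTAAACA were in 0 of the enzymes' windows and in 1.79% and 3.65% of all windows. The HNF4A site CAAAGTCCA was in the windows of Agxt2 alone (6.45% against 0.475% of all windows) and the E-box CACGTG in that of Mccc2 alone (3.23% against 7.15% of all windows). A match is a run of letters in a short window and not a bound site.

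The transaminases, which move amino groups between amino acids and keto acids, had the highest median of the 6 groups, at a log2 ratio of 0.38, with 3 of 4 above 0. Gpt2, the mitochondrial alanine transaminase (chromosome 8, 85492576 to 85528902, on GRCm38), stood at 429 CPM in the AAOT pool and 294 CPM in the control pool, 1.46-fold higher (95% counting interval 1.41 to 1.51), and 2.50% of all genes above the floor had a ratio as high or higher. Its cytosolic partner Gpt was at 257 CPM in the AAOT pool and 205 CPM in the control pool, 1.253-fold higher (1.20 to 1.31). Both genes make pyruvate from alanine in the reversible step that feeds gluconeogenesis.

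Got1 and Got2, the cytosolic and mitochondrial aspartate transaminases of the malate-aspartate shuttle, differed from each other. Got1 (chromosome 19, 43499752 to 43524605) was at 267 CPM in the AAOT pool and 199 CPM in the control pool, 1.35-fold higher (1.29 to 1.41). Got2 was at 586 CPM in the AAOT pool and 589 CPM in the control pool, a ratio of 0.994 (0.967 to 1.02) whose interval holds 1. The read ratio of Got1 to Got2 was 0.456 in the AAOT pool and 0.337 in the control pool, 1.35 times as high (1.29 to 1.43). Of the 50-base stretches of the longest Got2 transcript, 67.7% are unique to it and the other 32.3% are shared with the pseudogene Got2-ps1, so the assignment of Got2 reads is uncertain.

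Ratios between genes of the same enzyme or of neighbouring steps do not depend on the scaling between the libraries. They were taken for 13 pairs with Wald intervals of counting error, and the pairs were listed with the ratios already known, so they describe and test nothing. For 10 of the 13 the interval lay above 1, which says that the gene named on top was relatively higher in the AAOT pool. The order within a pair is arbitrary, and turning a pair round puts its ratio on the other side of 1. The side of 1 is therefore no result, and only the distance from 1 describes a pair. The highest were Gls2 over Glud1, at 1.68 times (1.61 to 1.74), Prodh over Prodh2, at 1.55 times (1.42 to 1.68), and Tat over Hpd, at 1.47 times (1.44 to 1.51).

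**Figure D2:**
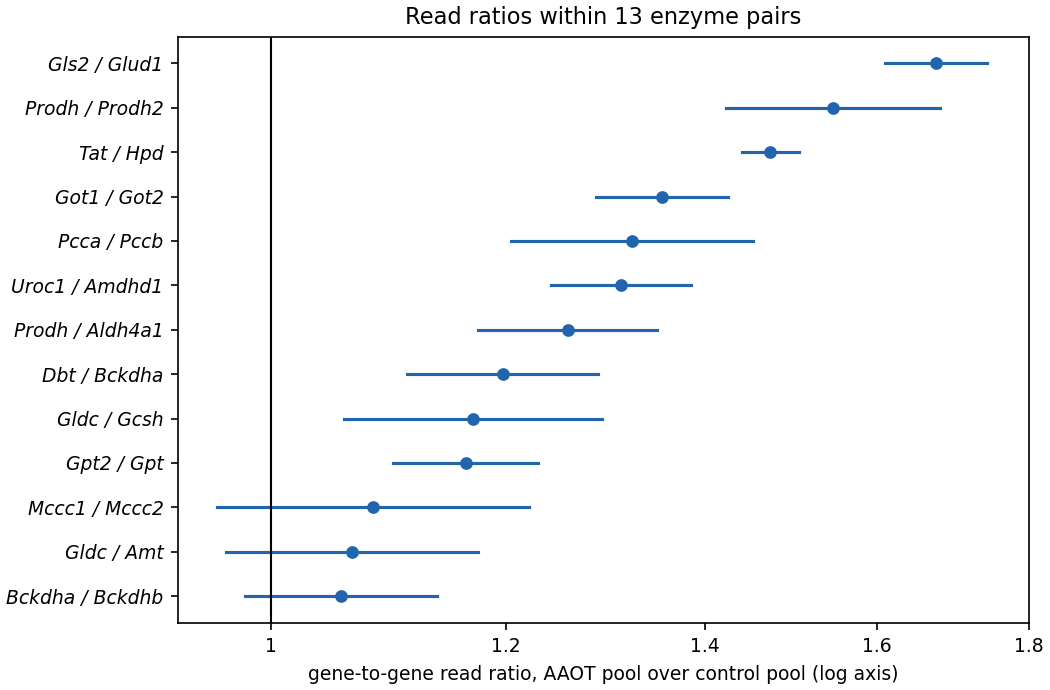
Read ratio of the first gene to the second, AAOT pool over control pool (log axis), for 13 pairs of enzymes or subunits, with 95% Wald intervals that cover counting error only. Intervals of Mccc1 over Mccc2, Gldc over Amt and Bckdha over Bckdhb hold 1, and Gls2 over Glud1 is the highest at 1.68.

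The aromatic group, which turns tyrosine into fumarate and acetoacetate, had a median log2 ratio of 0.09 with 3 of 4 above 0, and Tat set itself apart from the others. Tat, the tyrosine transaminase that starts the pathway (chromosome 8, 109986078 to 109999804), was at 1862 CPM in the AAOT pool and 1394 CPM in the control pool, 1.34-fold higher (1.31 to 1.36). Hpd, the dioxygenase of the next step, was at 1891 CPM in the AAOT pool and 2085 CPM in the control pool, 1.10-fold lower (1.09 to 1.12). Hgd, which opens the ring of homogentisate, was at 476 CPM in the AAOT pool and 445 CPM in the control pool, 1.07-fold higher (1.04 to 1.10). Fah, the last enzyme of the pathway, was at 535 CPM in the AAOT pool and 506 CPM in the control pool, 1.06-fold higher (1.03 to 1.09). Tat was the only gene of these 4 at least 25% higher, and none was 20% lower.

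Of 10 other genes of phenylalanine, tyrosine and tetrahydrobiopterin metabolism, 0 were past 1.5-fold, where 2.07% of all genes were higher and 1.39% lower. All 10 were above the floor and 5 were above 0, with a median of 0.01. The farthest from no change were the decarboxylase gene Ddc, at 84.1 CPM in the AAOT pool and 59.6 CPM in the control pool, 1.41-fold higher (1.30 to 1.53), and Qdpr, which regenerates tetrahydrobiopterin, at 383 CPM in the AAOT pool and 281 CPM in the control pool, 1.36-fold higher (1.31 to 1.41).

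The histidine group, which converts histidine to glutamate, had a median log2 ratio of 0.18 with 3 of 4 above 0, and none of the 4 was 25% higher or 20% lower. Hal, the lyase that frees ammonia from histidine, was at 263 CPM in the AAOT pool and 235 CPM in the control pool, 1.12-fold higher (1.07 to 1.16). Uroc1, the urocanate hydratase of the second step (chromosome 6, 90333239 to 90364551), was at 640 CPM in the AAOT pool and 529 CPM in the control pool, 1.21-fold higher (1.18 to 1.24), the highest of the group. Amdhd1, the imidazolonepropionase of the third step, was at 193 CPM in the AAOT pool and 209 CPM in the control pool, 1.08-fold lower (1.03 to 1.14), so that consecutive steps lay on opposite sides of 1. Ftcd, which hands the last carbon and nitrogen to tetrahydrofolate, was at 340 CPM in the AAOT pool and 295 CPM in the control pool, 1.15-fold higher (1.11 to 1.19). The 4 genes summed to 1436 CPM in the AAOT pool and 1269 CPM in the control pool.

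Among 7 neighbouring genes of histidine and folate metabolism, 6 were above the floor and had a median log2 ratio of 0.19, 5 of them above 0. The 1 that passed 1.5-fold was higher (16.7%, against 2.07% of all genes). Aldh1l1, the formyltetrahydrofolate dehydrogenase that disposes of folate-bound carbon, was at 1411 CPM in the AAOT pool and 892 CPM in the control pool, 1.58-fold higher (1.55 to 1.61). Hnmt, which inactivates histamine by methylation, was next, at 15.0 CPM in the AAOT pool and 12.1 CPM in the control pool, 1.24-fold higher (1.034 to 1.496).

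The serine and glycine group had a median log2 ratio of 0.12, with 5 of its 6 genes above the floor above 0 and none 25% higher or 20% lower. Sds, the serine dehydratase that makes pyruvate and ammonia, was at 90.7 CPM in the AAOT pool and 74.5 CPM in the control pool, 1.22-fold higher (1.13 to 1.31). Its relative Sdsl was scarce, at 5.20 CPM in the AAOT pool and 5.76 CPM in the control pool (87 reads in the AAOT pool and 107 in the control pool), a ratio of 0.902 whose interval of 0.672 to 1.21 holds 1. Agxt, the peroxisomal enzyme that turns glyoxylate into glycine, was at 290.1 CPM in the AAOT pool and 248 CPM in the control pool, 1.17-fold higher (1.12 to 1.22). Agxt2, a mitochondrial aminotransferase of glyoxylate and dimethylarginines, was at 72.1 CPM in the AAOT pool and 67.4 CPM in the control pool, a ratio of 1.07 (0.988 to 1.16).

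The glycine cleavage system, a mitochondrial complex that splits glycine into carbon dioxide, ammonia and a folate-bound carbon, was nearly even between the pools. Gldc, its decarboxylase (P protein), was at 312 CPM in the AAOT pool and 281 CPM in the control pool, 1.11-fold higher (1.07 to 1.15). Gcsh, the lipoyl carrier (H protein), was at 49.5 CPM in the AAOT pool and 52.2 CPM in the control pool, a ratio of 0.948 (0.863 to 1.04). Amt, the aminomethyltransferase (T protein), was at 54.8 CPM in the AAOT pool and 52.6 CPM in the control pool, a ratio of 1.04 (0.951 to 1.14). The intervals of Gcsh and Amt hold 1. Gldc was relatively higher against Gcsh, by 1.17 times (1.06 to 1.29), and against Amt by 1.06 times with an interval of 0.965 to 1.17 that holds 1.

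Of 19 neighbouring genes of serine, glycine and glyoxylate metabolism, 17 had a row and 14 were above the floor, with a median of 0.09. Past 1.5-fold were 0 of the 14, against 2.07% of all genes higher and 1.39% lower. Both genes farthest from no change act on glyoxylate and were lower, the opposite side from Agxt. Hao1, the peroxisomal oxidase that makes glyoxylate, was at 118 CPM in the AAOT pool and 174 CPM in the control pool, 1.48-fold lower (1.40 to 1.56). Grhpr, the reductase that removes glyoxylate, was at 142 CPM in the AAOT pool and 209 CPM in the control pool, 1.47-fold lower (1.40 to 1.55). Scaled to the upper quartile, both passed 1.5-fold.

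The branched-chain group was the least shifted, with a median log2 ratio of 0.00, 4 of 9 genes above 0 and none 25% higher or 20% lower. Bckdha and Bckdhb, the subunits of the E1 decarboxylase of the branched-chain keto acid dehydrogenase, were both slightly lower. Bckdha was at 238 CPM in the AAOT pool and 260 CPM in the control pool, 1.09-fold lower (1.04 to 1.14). Bckdhb was at 109 CPM in the AAOT pool and 125 CPM in the control pool, 1.15-fold lower (1.08 to 1.22). Dbt, the E2 core of the same complex, was on the other side, at 123 CPM in the AAOT pool and 112 CPM in the control pool, 1.10-fold higher (1.03 to 1.17).

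Further down the leucine branch, Ivd, the isovaleryl-CoA dehydrogenase, was at 232 CPM in the AAOT pool and 203 CPM in the control pool, 1.14-fold higher (1.09 to 1.19). Mccc1 and Mccc2, the subunits of methylcrotonyl-CoA carboxylase, were at 55.1 and 67.9 CPM in the AAOT pool and at 50.9 and 67.9 CPM in the control pool, with ratios of 1.08 (0.987 to 1.19) and 0.9997 (0.922 to 1.08) whose intervals hold 1. In the propionate branch shared by valine and isoleucine, Pccb was the lowest gene of the group, at 129 CPM in the AAOT pool and 154 CPM in the control pool, 1.20-fold lower (1.13 to 1.27). Its partner subunit Pcca was at 81.0 CPM in the AAOT pool and 73.5 CPM in the control pool, 1.10-fold higher (1.02 to 1.19), so the read ratio of Pcca to Pccb was 1.32 times as high (1.20 to 1.45). Mut, the methylmalonyl-CoA mutase, was at 194 CPM in the AAOT pool and 196 CPM in the control pool, a ratio of 0.991 (0.945 to 1.04).

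Among 20 neighbouring genes of branched-chain breakdown, 19 were above the floor and had a median log2 ratio of 0.03. The 2 that passed 1.5-fold (10.5%) were both lower, against 1.39% of all genes lower and 2.07% higher. Acat1, the mitochondrial thiolase that closes isoleucine breakdown and also serves ketone bodies, was at 297 CPM in the AAOT pool and 577 CPM in the control pool, 1.94-fold lower (1.88 to 2.01). Ppm1k, the phosphatase that activates the branched-chain keto acid dehydrogenase, was at 171 CPM in the AAOT pool and 283 CPM in the control pool, 1.66-fold lower (1.58 to 1.74). Both are farther from no change than any of the 9 branched-chain genes described above.

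The remaining 6 genes held both ends of the range. Their median log2 ratio was 0.31 over the 5 above the floor, with 3 above 0. Their summed level went the other way, at 2383 CPM in the AAOT pool and 2674 CPM in the control pool, most of it from Glud1. Prodh, the proline dehydrogenase that starts proline oxidation (chromosome 16, 18071726 to 18089283), was at 129 CPM in the AAOT pool and 85.8 CPM in the control pool, 1.51-fold higher (1.41 to 1.61), and 2.07% of all genes had a ratio as high or higher. It lay just past 1.5-fold and was not past it when scaled to the upper quartile, at 1.48-fold, or with an added constant of 5 CPM. Prodh2, the hydroxyproline dehydrogenase, was at 160.2 CPM in the AAOT pool and 164 CPM in the control pool, a ratio of 0.975 (0.925 to 1.03) whose interval holds 1. Among the 32 enzymes Gpt2, at 1.46-fold, was the next below that limit.

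Glud1 and Gls2, consecutive mitochondrial steps from glutamine over glutamate to 2-oxoglutarate, lay on opposite sides. Glud1, the glutamate dehydrogenase (chromosome 14, 34310727 to 34345033), was at 1388 CPM in the AAOT pool and 1875 CPM in the control pool, 1.35-fold lower (1.33 to 1.37), the lowest ratio of the 32 enzymes, and 2.90% of all genes had a ratio as low or lower. Of its 50-base stretches 91.8% are unique, the next lowest share after Got2 among the 34 genes. Gls2, the liver-type glutaminase, was at 379 CPM in the AAOT pool and 306 CPM in the control pool, 1.24-fold higher (1.20 to 1.29).

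Aass, the enzyme of the first steps of lysine breakdown (chromosome 6, 23072173 to 23132986), was at 327 CPM in the AAOT pool and 243 CPM in the control pool, 1.34-fold higher (1.29 to 1.40). Asns, the asparagine synthetase, a biosynthetic enzyme, had 1 read in the AAOT pool and 2 reads in the control pool, and no ratio was taken at that depth. Asns is a classical target of the stress factor ATF4. Of 14 other ATF4 targets 5 were above the floor, all 5 with a log2 ratio above 0 (median 0.16), and 1 passed 1.5-fold. Below the floor the list also held 2 genes past 1.5-fold in the other direction, named after their values were seen. Chac1, which degrades glutathione, was at 1.85 CPM in the AAOT pool and 4.90 CPM in the control pool (31 reads in the AAOT pool and 91 in the control pool), 2.65-fold lower (1.74 to 4.12). Fgf21, a liver hormone of fasting and amino acid shortage, was at 1.02 CPM in the AAOT pool and 2.85 CPM in the control pool (17 reads in the AAOT pool and 53 in the control pool), 2.81-fold lower (1.601 to 5.18). On the higher side below the floor, Aldh18a1 had 29 reads in the AAOT pool and 17 in the control pool. Its plain ratio was 1.89-fold higher (1.006 to 3.67), but with 1 CPM added it was not past 1.5-fold. Psat1 had 5 reads in the AAOT pool and 0 in the control pool. Without a floor the median of the 13 targets with a row was 0.12. With 1 CPM added, 1 of them was past 1.5-fold higher and 2 were past it lower. Atf4 itself was at 69.5 CPM in the AAOT pool and 77.8 CPM in the control pool, 1.12-fold lower (1.04 to 1.21). The targets above the floor included the transsulfuration enzyme Cth, at 371 CPM in the AAOT pool and 236 CPM in the control pool, 1.57-fold higher (1.51 to 1.63), and the lipoprotein receptor Vldlr, at 29.7 CPM in the AAOT pool and 20.8 CPM in the control pool, 1.43-fold higher (1.248 to 1.64).

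Of 18 neighbouring genes of glutamate, proline and lysine metabolism, 13 were above the floor and 6 of these were above 0, with a median of -0.01. Past 1.5-fold were 0 of the 13, against 2.07% of all genes higher and 1.39% lower. The farthest were the asparaginase gene Aspg, at 169 CPM in the AAOT pool and 140 CPM in the control pool, 1.21-fold higher (1.15 to 1.28), and Aldh4a1, the mitochondrial dehydrogenase that completes proline oxidation, at 706 CPM in the AAOT pool and 589 CPM in the control pool, 1.20-fold higher (1.17 to 1.23). The read ratio of Prodh to Aldh4a1 was 0.183 in the AAOT pool and 0.146 in the control pool, 1.26 times as high (1.17 to 1.35).

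**Figure D3:**
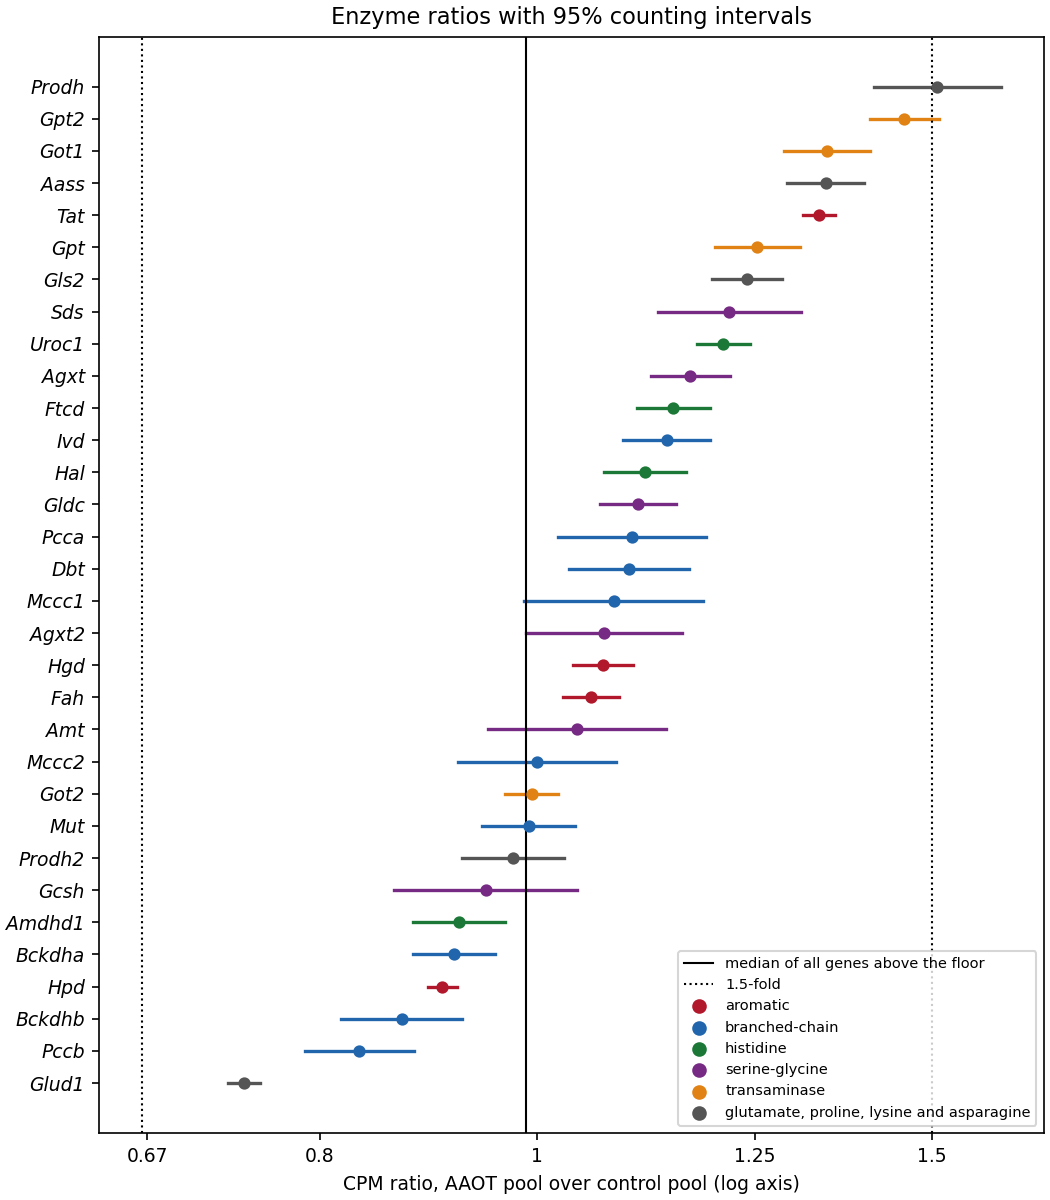
CPM ratio of the AAOT pool over the control pool (log axis) for the 32 enzymes above the floor, in order, coloured by group, with exact 95% intervals that cover counting error only. The solid line is the median of all genes above the floor and the dotted lines mark 1.5-fold. Prodh, at 1.51, is the only point past a dotted line, and under upper quartile scaling or with 5 CPM added it is not past it. Glud1 is the lowest point.

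**Figure D4:**
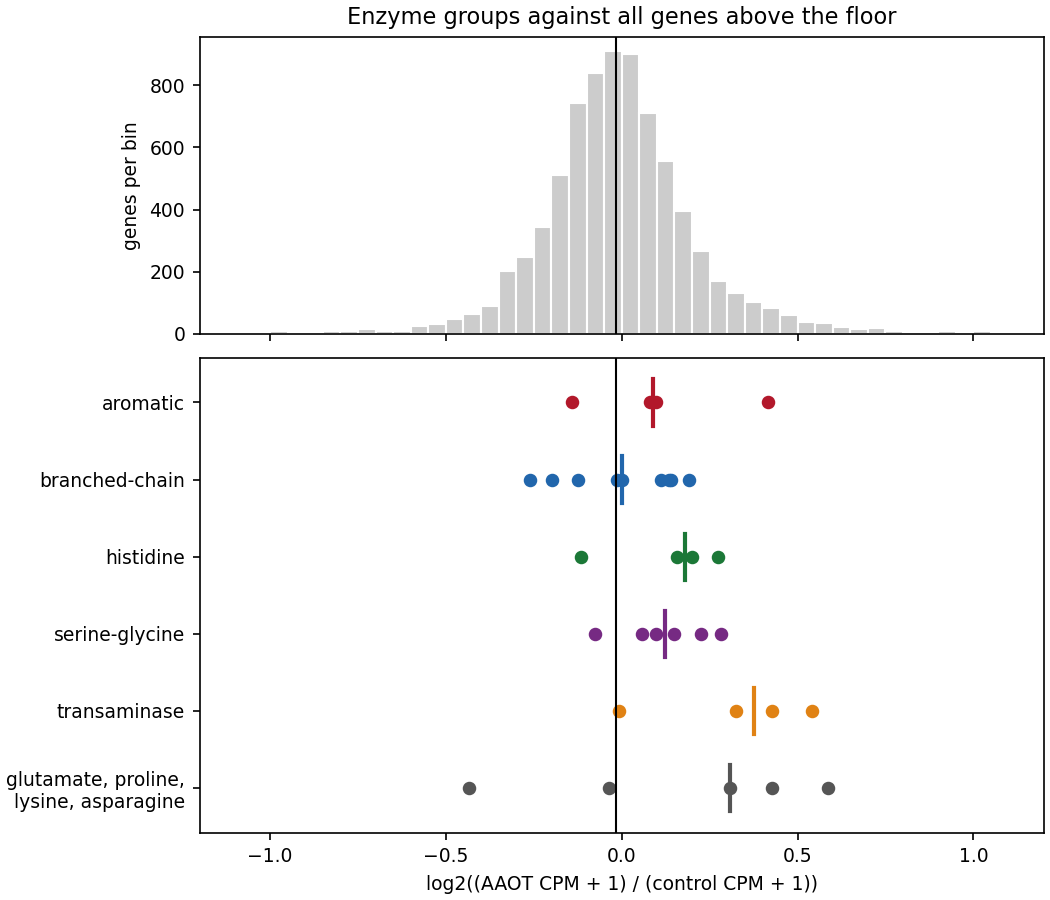
Top, number of genes per bin of log2((AAOT CPM + 1)/(control CPM + 1)) for genes above the floor, within the range drawn. Bottom, the same log2 ratio for each enzyme (points) and the median of each group (short bars). The long line is the median of all genes at -0.02. The transaminase median is the highest at 0.38 and the branched-chain median lies at 0.00.

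The medians of the groups rest on 4 to 9 genes each in 1 pair of libraries, and the difference between groups was not tested. Levels of different genes were compared per length, as CPM per kilobase of the longest GENCODE transcript. Hpd was the most abundant on this scale, at 1347 CPM per kilobase in the AAOT pool and 1485 in the control pool, followed in the AAOT pool by Tat at 784, Glud1 at 409, Fah at 338 and Hgd at 279 CPM per kilobase. In the control pool the same genes were at 587 (Tat), 553 (Glud1), 319 (Fah) and 261 (Hgd) CPM per kilobase. By this length Tat and Glud1 lay apart in the AAOT pool and close in the control pool, but this depends on the length taken. By mean transcript length they were close in the AAOT pool, at 1188 (Tat) and 1154 (Glud1) CPM per kilobase. In the control pool they were then apart, at 890 (Tat) and 1560 (Glud1) CPM per kilobase. Among the 10 highest genes by this order, 9 were the same with the longest protein-coding transcript and 8 with the mean transcript length. Prodh, whose longest transcript is a retained intron form, was 31st by the longest transcript and 23rd by the longest protein-coding transcript.

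Regulators of these genes were listed as 20 hormone receptors, transcription factors, coactivators and hormone-responsive genes, all with a row and 19 above the floor. Their median log2 ratio was -0.03, and the 2 that passed 1.5-fold (10.5%, against 2.07% of all genes) were both higher. Ppargc1a, a coactivator of gluconeogenic genes, was at 17.8 CPM in the AAOT pool and 8.19 CPM in the control pool, 2.18-fold higher (1.78 to 2.66), from 298 reads in the AAOT pool and 152 in the control pool. Its control level was under 10 CPM, so it passed the floor only through the AAOT pool. With 5 CPM added the ratio of Ppargc1a was 1.73. Per1, a clock gene that glucocorticoids also induce, was at 51.7 CPM in the AAOT pool and 27.2 CPM in the control pool, 1.90-fold higher (1.70 to 2.12). Other genes of the list, glucocorticoid-related ones among them, lay on both sides and nearer to no change than Per1. Klf15 was at 221 CPM in the AAOT pool and 162 CPM in the control pool, 1.36-fold higher (1.30 to 1.43). The part of glucocorticoids in these ratios was not tested. The glucocorticoid receptor Nr3c1 was at 166 CPM in the AAOT pool and 189.6 CPM in the control pool, 1.14-fold lower (1.09 to 1.20). Its target Fkbp5 was at 56.1 CPM in the AAOT pool and 63.0 CPM in the control pool, 1.12-fold lower (1.03 to 1.22). Its target Tsc22d3 was at 172 CPM in the AAOT pool and 149 CPM in the control pool, 1.15-fold higher (1.09 to 1.22). Times of day and feeding state of the mice are not given in the sources used here.

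**Figure D5:**
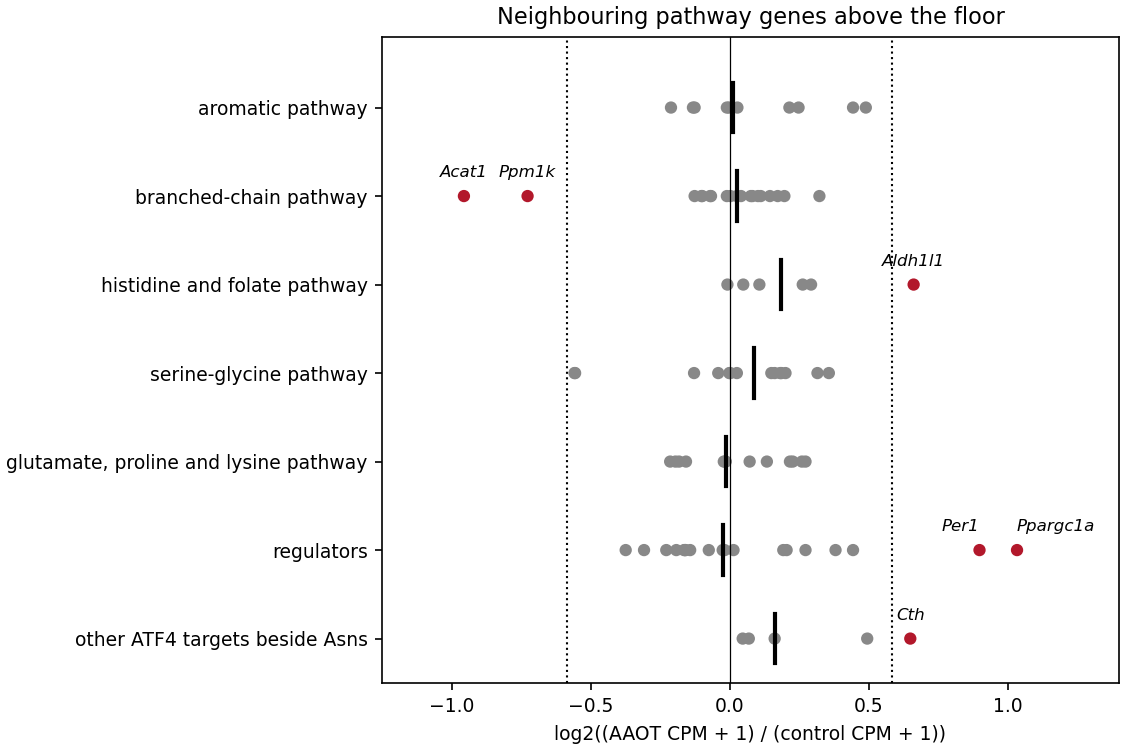
Log2((AAOT CPM + 1)/(control CPM + 1)) of neighbouring pathway genes above the floor in 7 lists (points), with the list median (bar). Dotted lines mark 1.5-fold and the genes past it are red and named. Acat1 and Ppm1k lie lowest and Ppargc1a and Per1 highest.

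Of 10 general hepatocyte markers, 9 had a row, the lowest of them Hnf4a at 771 CPM in the AAOT pool. They summed to 91902 CPM in the AAOT pool and 108075 CPM in the control pool, and 8 of the 9 were lower in the AAOT pool, with a median log2 ratio of -0.35, the opposite side from the enzymes' median. In a bulk sample fewer cells of a type and less RNA of these particular genes per cell cannot be told apart. Markers of other cells summed to 410 CPM in the AAOT pool and 391 CPM in the control pool for Kupffer cells and macrophages (11 of 11 with a row). Sinusoidal endothelial markers (10 of 10) summed to 639 CPM in the AAOT pool and 633 CPM in the control pool, and stellate cell and fibroblast markers (10 of 10) to 607 CPM in the AAOT pool and 695 CPM in the control pool. Cholangiocyte markers (8 of 8) summed to 62.1 CPM in the AAOT pool and 55.0 CPM in the control pool, but Prom1 alone was at 25.2 CPM in the AAOT pool and 7.75 CPM in the control pool. Without Prom1, left out after the values were seen, the other 7 summed to 36.9 CPM in the AAOT pool and 47.3 CPM in the control pool, the opposite direction. Most of that sum was Spp1, at 26.3 CPM in the AAOT pool and 34.4 CPM in the control pool, the only 1 of the 7 above the floor. For lymphocytes and NK cells (3 of 10 with a row), neutrophils (7 of 9) and kidney tubule (1 of 7) the sums were below 3 CPM in both pools, and Klrb1c and Ngp, with 2 reads each in the AAOT pool, were at 0 in the control pool, and Slc12a3 was at 0 in the AAOT pool with 2 reads in the control pool. Erythroid markers (7 of 7) summed to 353 CPM in the AAOT pool and 323 CPM in the control pool, pancreas markers (3 of 6) to 6.51 CPM in the AAOT pool and 11.8 CPM in the control pool, and adipocyte markers (1 of 5) to 18.3 CPM in each pool.

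Of the zonal markers of hepatocytes, periportal ones lay by their median on the enzymes' side and pericentral ones on the other. Periportal markers had a median log2 ratio of 0.12 with 10 of 13 above 0, and without Gls2, Hal and Sds, which belong to the 35 enzymes, a median of 0.08 with 7 of 10 above 0. They summed to 16115 CPM in the AAOT pool and 15371 CPM in the control pool. Cps1 alone was at 5800 CPM in the AAOT pool and 4848 CPM in the control pool, a wider gap than that of the sum. The summed level of the other periportal markers was thus lower in the AAOT pool. Only 3 of the 13 markers had a log2 ratio below 0, however, so most of the others were higher. Pericentral markers had a median of -0.26 with 10 of 12 below 0 and summed to 8267 CPM in the AAOT pool and 10370 CPM in the control pool. Most of the gap between these sums was Cyp2e1, at 5603 CPM in the AAOT pool and 7633 CPM in the control pool. Cyp1a2 went the other way, at 772 CPM in the AAOT pool and 407 CPM in the control pool, 1.89-fold higher (1.84 to 1.95). The part of these markers in the enzyme ratios was not tested.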

How the data were processed

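Liver RNA of 2 pools of 3 mice was sequenced after column purification, depletion of ribosomal RNA and directional library preparation from 200 ng, per the labels' protocols. The deposited table gives CPM per gene symbol in 2 columns whose headers hold the codes of the library titles. Trimmomatic 0.38, RSEM, Bowtie2, edgeR and mm10 appear, without an order, per the submitters' processing notes. Which gene annotation they used is not stated there. All values (100%) were whole multiples of 1 step per column within 1e-06, so reads were recovered, and columns sum to 987690 CPM (AAOT) and 1012463 CPM (control), so the authors' CPM include a factor per library. The recovered reads were not put through a count model, since there is 1 library per group.

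Ratios were formed per gene. Counting intervals are exact (Clopper-Pearson on the share of a gene's reads that fell in the AAOT library, at 95%) and treat reads as independent. No fold was taken where both libraries had 3 reads or fewer. The rule for the members uses no measured value, but they and all lists were chosen with earlier results of these data known. All members are named, and of each neighbouring list the genes past 1.5-fold or, if fewer than 2, the farthest 2. In the histidine and folate list, 1 gene is not reported here and is left out of its counts and median. Hbb-bs, Hbb-bt, Chac1, Fgf21, Aldh18a1, Psat1, Atf4, Klf15, Nr3c1, Fkbp5 and Tsc22d3 were named after their values were seen. The same holds for the markers Cps1, Cyp2e1, Cyp1a2, Spp1, Prom1, Klrb1c, Ngp and Slc12a3. Alternatives were 5 scalings, added constants of 0.1 and 5 CPM, floors of 1 CPM, 50 CPM and none, and fold sizes of 2 and of 25% higher or 20% lower. The depths were 16528533 reads (AAOT) and 18801241 reads (control). The ratio and interval steps were tested on simulated reads. Gene positions and promoter windows are from RefSeq (GRCm38.p6, of which mm10 is the name at UCSC), with positions for 34 members. Lengths and shares of unique 50-base stretches are from GENCODE M21 transcripts, for 34 members. Computation used scipy 1.17.1, numpy 2.4.6 and pandas 2.3.3 under Python 3.11.15, and plots matplotlib 3.10.9.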

Additional observations from a re-analysis of the deposited data

How the results depend on the processing

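No paired analysis was possible because each group is 1 library. The median log2 ratio of the enzymes was between 0.09 and 0.16 over all alternatives, and the medians of the aromatic, histidine, serine and glycine and transaminase groups stayed above 0 in each of them. The median of the branched-chain group was 0.04 with plain column sums and -0.03 with the upper quartile. That of the glutamine, glutamate, proline, lysine and asparagine genes was 0.14 without a floor, which adds Asns, and 0.37 without Got2 and Glud1, an alternative added after the data were seen. The 1 enzyme at least 1.5-fold higher, Prodh, became 0 with the upper quartile and with 5 CPM added, since it lies at the limit. At a fold size of 2, 0 enzymes were higher, while 6 were at least 25% higher and 1 at least 20% lower. The count at least 25% higher was 5 to 7 over the other scalings, constants and floors, a range taken after the data were seen, beside 5.59% to 9.71% of all genes, and the lower count became 0 without Got2 and Glud1. Of 231 recomputed ratios of 33 enzymes 225 stayed inside their counting interval, and the 6 outside were those of Tat, Hpd and Glud1 under column sums and the upper quartile.

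Medians of some neighbouring lists lie near 0 and changed sign. The list of glutamate, proline and lysine genes was at 0.022 with column sums, 0.002 without the 20 most abundant genes, 0.003 with the median ratio set to 0 and 0.017 with a floor of 1 CPM. The regulators were at 0.011 with column sums. With the upper quartile the aromatic neighbours were at -0.018 and the branched-chain neighbours at -0.004. The list of other ATF4 targets had 2 genes at least 1.5-fold lower, in place of 0, with a floor of 1 CPM or none. The ratio of summed cholangiocyte markers, 1.13 with all 8, was 0.781 without Prom1, an alternative added after the data were seen. The alternative scalings moved the median of all genes to between -0.05 and 0.02. With 1 library per group, read depth limits Sdsl and Asns, and the number of libraries limits every other ratio. Leaving out Bckdhk changed no branched-chain value, since that gene was not analysed, and leaving out a replicate is not possible with 1 library per group.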

Other observations

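The beta-globin gene Hbb-bs, named after its values were seen, had 102 reads in the AAOT pool and 0 reads in the control pool, where the neighbouring Hbb-bt was at 13.4 CPM in the AAOT pool and 11.7 CPM in the control pool.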
